A study of Mus musculus with 24 samples.

Results

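Alveolar epithelial cells (AECs) without Krt8 were compared with wild-type AECs at the end of a 2D culture, on day 7. The comparison used the 6 of 24 libraries whose labels give that day, 3 of each genotype. Each Krt8–/– library was paired with the Krt8+/+ library whose label carries the same date. Krt8–/– mice carry a global knockout, so the gene is lost in every cell type, and Krt8+/+ mice carry the wild-type gene. Type II cells (AEC2s) of both genotypes were isolated, and from day 0 on they were cultured on a stiff substrate coated with laminin. The labels hold 3 dates without saying what was done on them. They are read here as dates of isolation, because libraries of every day share them, and are called isolations 1, 2, and 3. The series also holds libraries of days 0, 1, and 3, which share these dates. Strain, age, and sex of the mice, and whether mice were pooled, are not given in the labels. The comparison asks whether the transcriptome of AECs differed by genotype after a week in culture, and whether small shifts of pathways recurred in all 3 isolations.

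Keratin filaments of simple epithelia are built from pairs of a type II and a type I keratin, and K8 with K18 is the main pair of the lung epithelium. The filaments are anchored at desmosomes and hemidesmosomes and carry mechanical load, and in other simple epithelia K8 and K18 are known to depend on each other for protein stability. In the alveolus, AEC2s make surfactant and can give rise to AEC1s, the thin cells of gas exchange, through a transitional state that is rich in keratins.

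The 6 libraries held 11699243 to 16648170 counts each. Counts were scaled with TMM factors (1.01 to 1.07) and are given in CPM (counts scaled to library size, per 1000000), always in the order of isolations 1, 2, and 3. Mitochondrial transcripts were 1.01% to 1.47% of each library's counts. Across genes, which are not independent replicates, log2 CPM of the genotypes correlated at 0.980, 0.982, and 0.984 (Pearson) within an isolation and at 0.957 to 0.978 between isolations of 1 genotype. Libraries that shared neither correlated at up to 0.980, for Krt8+/+ AECs of isolation 2 and Krt8–/– AECs of isolation 1. Of 55421 gene entries, 18046 passed the filter on low counts and were tested with edgeR's quasi-likelihood test in 1 model of all 24 libraries, with Benjamini-Hochberg adjustment and a threshold of 0.05. "Rose" and "fell" are used for genes past that threshold. For a single gene outside such a model, 3 libraries against 3 allow no p under 0.1 in an exact permutation test that ignores pairs. With the pairs kept, that limit is higher.

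The sex-linked transcripts differed between the genotypes in isolation 1. Xist, the RNA that silences an X chromosome in female cells, was counted at 79.2, 48.0, and 0 CPM in Krt8+/+ AECs and at 12, 53.5, and 0.0638 CPM in Krt8–/– AECs. The 4 Y-linked genes summed to 0, 0.166, and 208 CPM in Krt8+/+ AECs and to 173, 0, and 199 CPM in Krt8–/– AECs. Isolation 2 thus held libraries with Xist, isolation 3 libraries with Y-linked counts, and isolation 1 a Krt8+/+ library with Xist alone beside a Krt8–/– library with Y-linked counts and less Xist. In isolation 1, sex-linked transcripts and genotype cannot be told apart, and values of each isolation are given for this reason.

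The cells carried the markers of cultured alveolar epithelium in both genotypes. The 12 epithelial markers, of which Krt18 made up 42.7%, summed to 7320.3, 8191, and 5323 CPM in Krt8+/+ AECs and to 6073, 7038, and 3525 CPM in Krt8–/– AECs. The 10 AEC1 markers summed to 2192, 2669, and 3129 CPM in Krt8+/+ AECs and to 2274, 2912, and 3059 CPM in Krt8–/– AECs. These sums were similar, but Timp2 alone made up 37.5% of them. Timp2 was at 787, 924, and 1127 CPM in Krt8+/+ AECs and at 807, 1030, and 1415 CPM in Krt8–/– AECs, higher in each isolation. Sftpc, the surfactant protein that defines AEC2s, had gone from a mean of 186650 CPM in Krt8+/+ AECs on day 0 to 48.8 ± 17.7 CPM (SD, n = 3) on day 7, and from 186910 to 24.2 ± 7.11 CPM in Krt8–/– AECs. Cells isolated as AEC2s therefore held little RNA of this marker when the comparison was made.

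The genotypes differed in few transcripts on day 7. Krt8 fell, together with Krt8-ps, a processed pseudogene copied from it, and Smarcd1, which encodes a subunit of the SWI/SNF chromatin remodelling complex. These were 3 of 18046 genes (0.0166%) past the threshold, and edgeR called 0 genes higher (0%). At an unadjusted p under 0.05, edgeR had 103 genes higher and 152 lower. DESeq2 called 2 genes higher and 5 lower, and limma-voom called 0 higher and 3 lower. The 4 genes that DESeq2 added were Cd34, Jchain, Igkc, and Gm45837, named after their values were seen, and each of the last 3 was counted in 1 library of day 7 alone.

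Krt8 (ENSMUSG00000049382) lies on chromosome 15 of GRCm38 (chr15:101996698-102004482). It was counted at 4041, 5092, and 2956 CPM in Krt8+/+ AECs and at 29.8, 34.7, and 26.2 CPM in Krt8–/– AECs. Each Krt8–/– library was far below each Krt8+/+ library, as the genotype labels require. The log2 difference was −7.06 (standard error 0.28, edgeR adjusted p = 1.1e-12), lower in 3 of 3 isolations, and 0.75% of the wild-type level remained. Gm36026, a gene on the opposite strand, overlaps Krt8, and whether the counting used strand is not given in the sources used here.

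Krt8-ps, on chromosome 7, was counted at 117, 163, and 98.2 CPM in Krt8+/+ AECs and at 0.858, 1.01, and 1.85 CPM in Krt8–/– AECs. Its value is uncertain, because reads of Krt8 can be assigned to a copy that is nearly identical. The pseudogene fell in 3 of 3 isolations, with a log2 difference of −6.65 (edgeR adjusted p = 1.7e-10), close to the fall of Krt8 itself.

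Smarcd1 was counted at 17.2, 17.3, and 18.3 CPM in Krt8+/+ AECs and at 3.43, 2.18, and 1.72 CPM in Krt8–/– AECs. The libraries of a genotype lay close together, and the genotypes did not overlap. Smarcd1 fell in 3 of 3 isolations to 13.9% of the wild-type level, a log2 difference of −2.84 with an error of 0.29 (edgeR adjusted p = 2.0e-05). On days 0, 1, and 3 the log2 difference was −2.87, −2.47, and −3.17, so the size on day 7 was like that in fresh cells. Smarcd1 lies 2.29 Mb from Krt8 on the same chromosome (chr15:99702129-99713991). Without isolation 2, Smarcd1 was not past the threshold (−2.78, edgeR adjusted p = 0.13), nor was it in a model of the 6 libraries alone (−2.84, edgeR adjusted p = 0.088). With the block, both of these models called it (edgeR adjusted p = 0.036 and 0.026).

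Cd36 and Cd34 fell as well when each pair of libraries from 1 isolation and day entered the model as a block. With this block, edgeR called 5 genes lower (0.0277%) and 0 higher (0%), with 278 genes higher and 384 lower at an unadjusted p under 0.05. DESeq2 with the block called 3 higher (Epas1, Rabl2, and Mlc1) and 20 lower. Cd36, a scavenger receptor and fatty acid transporter known from macrophages and endothelium, was abundant in the fresh cells of day 0 (a mean of 2558.5 CPM in Krt8+/+ AECs), where the macrophage marker Cd68 was at 7.90 CPM. On day 7 Cd36 was counted at 82.3, 23.2, and 6.16 CPM in Krt8+/+ AECs and at 29.2, 10.9, and 3.51 CPM in Krt8–/– AECs. The isolations spanned a wider range than the genotypes, whose libraries overlapped, yet the Krt8–/– library was the lower one in each isolation. Cd36 had a log2 difference of −1.35 without the block (edgeR adjusted p = 1) and fell with it (−1.21, standard error 0.13, edgeR adjusted p = 5.6e-04), lower in 3 of 3 isolations. With isolation 1 left out, the blocked difference was −0.98 (edgeR adjusted p = 0.25). In bulk RNA, fewer cells of a type and less RNA per cell cannot be told apart.

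Cd34, a sialomucin on stem cells, endothelium, and some stromal cells, was counted at 4.56, 1.74, and 19.2 CPM in Krt8+/+ AECs and at 1.20, 0.467, and 2.10 CPM in Krt8–/– AECs. Isolation 3 held the highest value in both genotypes. Cd34 had a log2 difference of −2.73 without the block (edgeR adjusted p = 1) and fell with it (−2.53, edgeR adjusted p = 0.0036), lower in 3 of 3 isolations. With isolation 1 or isolation 3 left out, the blocked difference was −2.86 (edgeR adjusted p = 0.11) or −1.90 (edgeR adjusted p = 0.27). With isolation as an additive term across days in place of the pairs, neither Cd36 (−1.27) nor Cd34 (−2.76) was past the threshold (edgeR adjusted p = 1 for both). In a blocked model of the 6 libraries alone, neither Cd36 (−1.20, edgeR adjusted p = 0.13) nor Cd34 (−2.49, edgeR adjusted p = 0.19) was past the threshold. Of 12 endothelial markers, 7 were tested. Cldn5 and Erg had a count of 0 in all 6 libraries and Cdh5 had 8 counts in all, while Kdr was counted at 1.23, 0.829, and 2.05 CPM in Krt8+/+ AECs and at 0.801, 1.01, and 3.57 CPM in Krt8–/– AECs. The part of endothelial RNA in the fall of Cd34 was not tested.

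Macrophage markers were lower beside Cd36 in isolations 1 and 2. Of 18 markers, 17 were tested, and they summed to 3496, 994, and 33.2 CPM in Krt8+/+ AECs and to 1785, 475, and 71.0 CPM in Krt8–/– AECs. Lyz2, which AEC2s also express, made up 85.5% of this sum over all libraries. In isolation 3 it was at 15.5 of 33.2 CPM in Krt8+/+ AECs and at 52.5 of 71.0 CPM in Krt8–/– AECs. The sum was lower in Krt8–/– AECs in isolations 1 and 2 and higher in isolation 3, where it was small in both genotypes. Lyz2 held most of the difference in isolation 3. With the block, 8 of the 17 markers were lower at an unadjusted p under 0.05 (Ptprc, Cd68, Adgre1, Csf1r, Fcer1g, C1qc, Mpeg1, and Ctss), against 2.13% of all genes tested. Most of the 17 were lower in isolations 1 and 2, where 1 and 2 of them were higher, while 8 were higher in isolation 3. Hence 2 of the 17 were lower in all 3 isolations, beside 11.7% of all genes. The median log2 difference of the list was −1.13 in isolation 1, −1.07 in isolation 2, and 0 in isolation 3, and the median of all genes was 0 in each.

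Lyz2, the lysozyme of macrophages, was counted at 3019, 839, and 15.5 CPM in Krt8+/+ AECs and at 1543, 389, and 52.5 CPM in Krt8–/– AECs. Mpeg1, a pore-forming protein of macrophages, was counted at 89.5, 29.3, and 2.05 CPM in Krt8+/+ AECs and at 40.6, 16.7, and 2.81 CPM in Krt8–/– AECs. Both genes were lower in Krt8–/– AECs in isolations 1 and 2 alone. Adgre1 (F4/80) and Fcer1g, both on the macrophage list, were at 0 in both libraries of isolation 3, and Fcgr1 was not tested, with 23 counts in the 6 libraries.

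Other genes had the same order of isolations as Cd36 and were named after their values were seen. Mmp12, the macrophage elastase, was counted at 264, 147, and 0.663 CPM in Krt8+/+ AECs and at 108, 38.0, and 0.0638 CPM in Krt8–/– AECs. Pla2g7, a secreted phospholipase that macrophages make, was counted at 51.0, 17.6, and 3.58 CPM in Krt8+/+ AECs and at 20.6, 6.93, and 1.28 CPM in Krt8–/– AECs. Msr1, another scavenger receptor, was counted at 21.6, 8.13, and 0.0663 CPM in Krt8+/+ AECs and at 6.69, 2.34, and 0.0638 CPM in Krt8–/– AECs. All 3 were highest in isolation 1, lowest in isolation 3, and lower in Krt8–/– AECs in each isolation, although Msr1 was nearly equal in isolation 3. None was past the threshold in edgeR with or without the block, but Mmp12 and Pla2g7 were in a blocked model of the 6 libraries alone, and DESeq2 with the block called Pla2g7. The part of macrophage RNA in the fall of Cd36 was not tested.

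**Figure D1:**
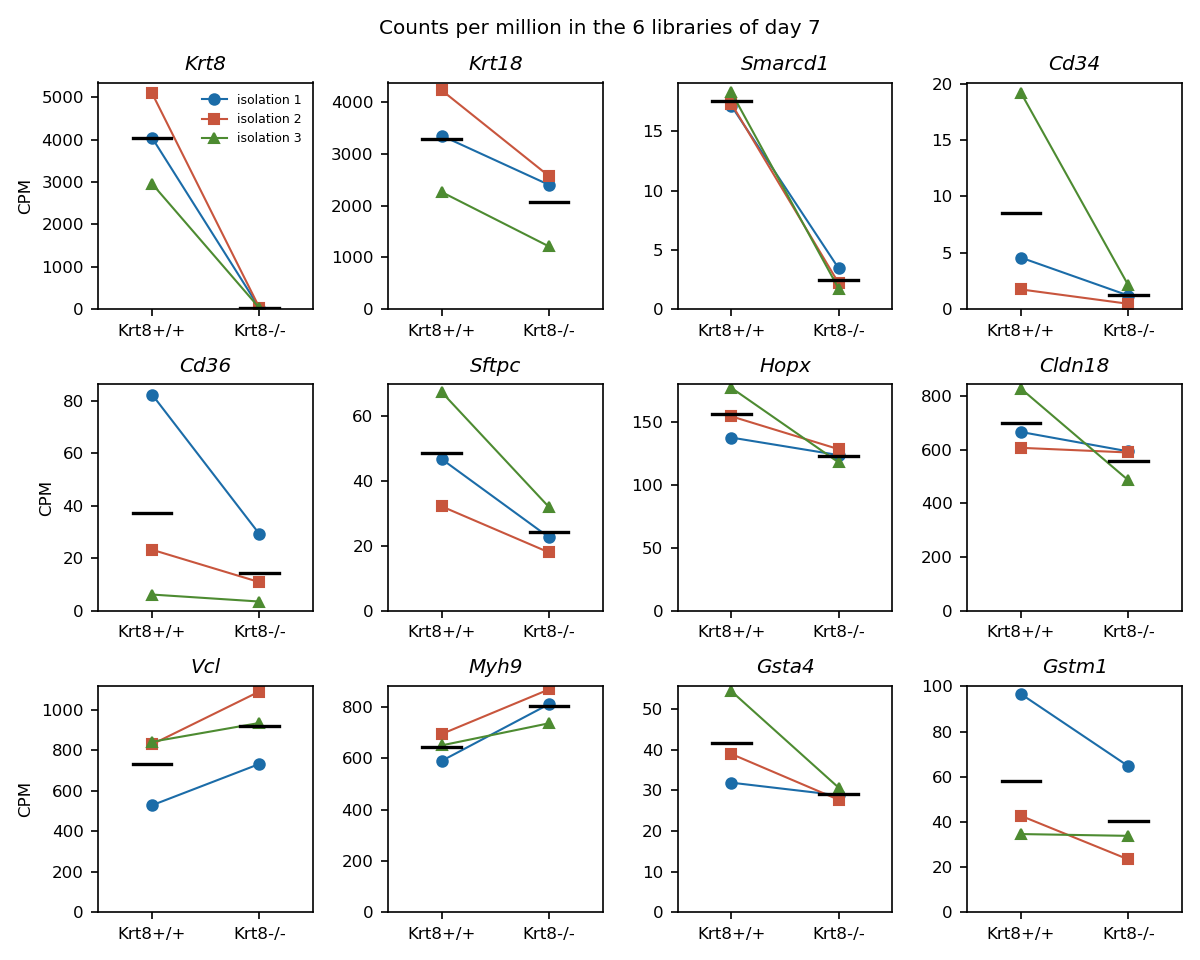
CPM (vertical axis) of 12 genes in the 6 libraries of day 7, with Krt8+/+ on the left and Krt8–/– on the right of each panel, a line for each isolation and a black bar for the mean of 3 libraries. Krt8, Smarcd1, Cd34, Cd36, Krt18, and Sftpc were lower and Vcl and Myh9 higher in Krt8–/– AECs in each isolation, and Cd36 differed more between isolations (82.3, 23.2, and 6.16 CPM in Krt8+/+ AECs) than between genotypes.

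Sftpc, whose protein lowers surface tension in the alveolus, led the genes that missed the threshold. It was counted at 46.8, 32.2, and 67.4 CPM in Krt8+/+ AECs and at 22.6, 18, and 32.0 CPM in Krt8–/– AECs. The highest Krt8–/– library was just below the lowest Krt8+/+ library. The log2 difference with the block was −0.99 (standard error 0.17, edgeR adjusted p = 0.107), lower in 3 of 3 isolations, and within isolations it was −1.04, −0.83, and −1.07. It passed the threshold in a blocked model of the 6 libraries alone (−0.998, edgeR adjusted p = 0.042) and with isolation 2 left out of the blocked model of all days (−1.07, edgeR adjusted p = 9.4e-04). It did not with isolation 1 (−0.96, edgeR adjusted p = 0.87) or isolation 3 left out (−0.95, edgeR adjusted p = 0.57), nor in DESeq2 with the block (DESeq2 adjusted p = 0.18). On day 0 the genotypes had nearly the same level of Sftpc, and on day 7 the gene was at a trace of that level in both.

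By the same order of p values came Gm10175, Sec14l3, Pou6f1, and Mettl7a1. Gm10175, a transcribed pseudogene whose reads can be shared with its parent gene, was counted at 47.1, 44.1, and 39.1 CPM in Krt8+/+ AECs and at 20.1, 22.1, and 16.3 CPM in Krt8–/– AECs. Sec14l3, a lipid-binding protein, was counted at 7.42, 6.39, and 10.3 CPM in Krt8+/+ AECs and at 5.43, 2.18, and 3.76 CPM in Krt8–/– AECs. In both genes the genotypes did not overlap, and the blocked log2 difference was −1.16 for Gm10175 (edgeR adjusted p = 0.107) and −1.08 for Sec14l3 (edgeR adjusted p = 0.144), each lower in 3 of 3 isolations. Sec14l3 was at a mean of 1386 CPM in Krt8+/+ AECs on day 0, so that, like Sftpc, it was a gene of fresh cells that was low by day 7. With isolation 1 left out, Sec14l3 was past the threshold in the blocked model (−1.49, edgeR adjusted p = 0.043), but not with isolation 2 (edgeR adjusted p = 0.54) or isolation 3 left out (edgeR adjusted p = 0.79), nor in the blocked model of 6 libraries (edgeR adjusted p = 0.97). Gm10175 was past the threshold in that model of 6 libraries (edgeR adjusted p = 0.032) and with isolation 2 left out (edgeR adjusted p = 0.038), but not with isolation 1 or 3 left out (edgeR adjusted p = 0.88 and 0.37). DESeq2 with the block called Gm10175, Sec14l3, Pou6f1, and Mettl7a1.

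Among the keratins, Krt18, the partner of Krt8 and its neighbour on chromosome 15, was the most abundant one that was lower in all 3 isolations besides Krt8. Krt18 was counted at 3349.7, 4227, and 2261 CPM in Krt8+/+ AECs and at 2400.0, 2569, and 1210.1 CPM in Krt8–/– AECs. The ranges overlapped between isolations, and within each isolation the Krt8–/– library was the lower one, with log2 differences of −0.48, −0.72, and −0.90. The difference was −0.67 without the block (edgeR adjusted p = 1) and −0.70 with it (standard error 0.13, edgeR adjusted p = 0.166), lower in 3 of 3 isolations, and DESeq2 with the block called it (−0.71, DESeq2 adjusted p = 9.5e-05). On day 0, Krt18 was counted at 244, 299, and 312 CPM in Krt8+/+ AECs and at 437, 445, and 433 CPM in Krt8–/– AECs, the opposite order.

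The other abundant keratins, Krt7 and Krt19, were not lower in all 3 isolations. Krt7, another type II keratin and the most abundant one in Krt8–/– AECs, was counted at 3660.5, 4189.6, and 2964 CPM in Krt8+/+ AECs and at 3960.3, 5094, and 2408 CPM in Krt8–/– AECs. Krt19, a type I keratin that can also pair with K8, was counted at 1653, 1761, and 1207 CPM in Krt8+/+ AECs and at 1457, 1856, and 879 CPM in Krt8–/– AECs. Krt7 was higher in isolations 1 and 2 and lower in isolation 3, and its log2 difference of 0.084 turned to −0.061 without isolation 2. Of the 15 keratins other than Krt8, 0 were higher and 3 lower (Krt18, Krt10, and Krt16) in all 3 isolations, with a median log2 of 0, 0.23, and −0.30 in the 3 isolations. The 9 transitional markers, which include Krt8, had 0 higher and 3 lower in all 3 isolations, and in isolation 3 none of the 9 was higher.

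Some further genes of alveolar identity, named from separate lists for their unadjusted p, were lower in all 3 isolations, and none was called. Sftpd, the surfactant collectin, was counted at 33.3, 31.3, and 53.2 CPM in Krt8+/+ AECs and at 27.2, 30.2, and 23.3 CPM in Krt8–/– AECs. Nkx2-1, the transcription factor that sets lung epithelial identity, was counted at 57.2, 65.3, and 76.1 CPM in Krt8+/+ AECs and at 57.0, 56.5, and 51.9 CPM in Krt8–/– AECs. For these genes the genotypes did not overlap, though isolation 1 for Nkx2-1 and isolation 2 for Sftpd had nearly the same level in both. Lpcat1, which makes surfactant phosphatidylcholine, was counted at 113, 97.8, and 128 CPM in Krt8+/+ AECs and at 95.9, 96.4, and 87.1 CPM in Krt8–/– AECs. The blocked log2 difference was −0.52 for Sftpd (edgeR unadjusted p = 0.017), −0.26 for Nkx2-1 (edgeR unadjusted p = 0.046), and −0.27 for Lpcat1 (edgeR unadjusted p = 0.019), each lower in 3 of 3 isolations. Isolation 3 carried most of this, and without it the values were −0.17, −0.10, and −0.13.

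Some AEC1 genes, named for their unadjusted p, were lower in all 3 isolations, while most AEC1 genes were not. Hopx, a homeodomain-only protein of AEC1s, was counted at 138, 154, and 177 CPM in Krt8+/+ AECs and at 124, 128, and 118 CPM in Krt8–/– AECs. Rtkn2, a marker of AEC1s, was counted at 61.0, 64.4, and 168 CPM in Krt8+/+ AECs and at 51.2, 37.5, and 77.5 CPM in Krt8–/– AECs. Cldn18, a tight junction claudin of the alveolus, was counted at 666, 607, and 827 CPM in Krt8+/+ AECs and at 593, 589, and 486 CPM in Krt8–/– AECs. The 3 genes were lower in all 3 isolations, with blocked log2 differences of −0.34, −0.72, and −0.32 and edgeR unadjusted p = 0.025, 0.019, and 0.021. Without isolation 3, the values of Hopx and Cldn18 were −0.21 and −0.10. Aqp5, the water channel of AEC1s, went the other way in isolations 1 and 2, at 87.3, 76.1, and 143 CPM in Krt8+/+ AECs and 136, 131, and 125 CPM in Krt8–/– AECs, and it lies 2.41 Mb from Krt8.

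Lists of alveolar markers had mixed counts. Of 10 AEC2 markers, 0 were higher and 2 lower in all 3 isolations, with a median log2 of −0.56, −0.041, and −0.31 in the 3 isolations. Several were at trace levels, such as Sfta2 (4 counts over the Krt8+/+ and 10 over the Krt8–/– libraries), Sftpb (42 and 27), and Sftpa1 (43 and 20). Without members under 5 CPM in both groups, the median of the list still had 1 sign in each isolation. Their sum was 3225, 977, and 225 CPM in Krt8+/+ AECs and 1692, 509, and 193 CPM in Krt8–/– AECs. Over all libraries, 85.9% of it was Lyz2, a gene of the macrophage list too. In isolation 3, Lyz2 was at 15.5 CPM in Krt8+/+ AECs and 52.5 CPM in Krt8–/– AECs, a minor part of the sum. The macrophage sum had the same direction in isolations 1 and 2 and the opposite one in isolation 3, and its part was not tested. Of 10 AEC1 markers, 1 was higher and 2 lower in all 3 isolations (median log2 0.069, 0.057, and −0.19), and DESeq2's size factors turned their median over all libraries from 0.0089 to −0.0070. A further 15 AEC1 genes had 0 higher and 1 lower in all 3 isolations, and their median was 0.15, 0.23, and −0.54. Isolation 3 thus had the lowest of these AEC1 medians, which are differences between genotypes. The level of the 10 AEC1 markers was not low there, as their sum was highest in isolation 3 in both genotypes (3129 and 3059 CPM). The epithelial sum was lowest in that isolation (5323 CPM without and 3525 CPM with the knockout).

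The search for small shifts in pathways used 46 lists, among which 2 were of sex-linked genes. The remaining lists held 852 tested genes. Of these, edgeR called 1 lower with and without the block (Krt8) and 0 higher. DESeq2 with the block called further list members, among them Krt18 and Tppp3, both lower. With the block in edgeR, 20 of the 852 were higher (1.54% of all genes tested were) and 43 lower (2.13% of all genes) at an unadjusted p under 0.05. In all 3 isolations, 81 were higher (12.4% of all genes) and 132 lower (11.7% of all genes). A gene with no difference has a 1 in 8 chance per direction only if isolations are independent, and the shares over all genes stand in for that figure here. The counts of each list are to be read beside these shares, 12.4% higher and 11.7% lower in all 3 isolations. The median log2 difference kept the same sign in each isolation in 8 lists, above 0 in 3 of them (actomyosin and focal adhesion, TGF-β, and AP-1 genes) and below 0 in 5 (AEC2 markers, interferon-stimulated, cell cycle, respiratory chain, and NRF2 genes). No list was tested as a set.

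Actomyosin and focal adhesion genes leaned higher in Krt8–/– AECs. Of 30 tested, 15 were higher and 1 lower in all 3 isolations (12.4% and 11.7% of all genes tested). In 3 of the 30 all Krt8–/– libraries were above all Krt8+/+ libraries (3.01% of all genes tested). The median log2 difference was 0.22, 0.10, and 0.025 in the 3 isolations and 0 for all genes, and with DESeq2's size factors the median of isolation 3 turned to −0.0049 and 11 of 30 were higher in all 3 isolations. With the block, 6 had an unadjusted p under 0.05, all higher (1.54% of all genes tested were higher at that p). None was past the threshold.

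Vcl (vinculin), which links integrins to actin under tension, was counted at 529, 829.7, and 842 CPM in Krt8+/+ AECs and at 733, 1090.3, and 935 CPM in Krt8–/– AECs. Tln1 (talin), which activates integrins, was counted at 347, 489.6, and 538 CPM in Krt8+/+ AECs and at 501, 643, and 639.9 CPM in Krt8–/– AECs. Myh9, the heavy chain of nonmuscle myosin IIA, was counted at 589.7, 694, and 649.9 CPM in Krt8+/+ AECs and at 810.3, 868, and 736 CPM in Krt8–/– AECs. In each gene the Krt8–/– library was the higher one of every pair, on the log2 scale by the most in isolation 1 and the least in isolation 3. The blocked log2 difference was 0.34 for Vcl (edgeR unadjusted p = 0.0055), 0.39 for Tln1 (edgeR unadjusted p = 0.045), and 0.32 for Myh9 (edgeR unadjusted p = 0.012).

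Flna (filamin A), which crosslinks actin, was counted at 1934, 2684, and 2586 CPM in Krt8+/+ AECs and at 2631, 3545, and 2719.5 CPM in Krt8–/– AECs. Itgb1, the integrin chain shared by most matrix receptors, was counted at 2121, 2883, and 2749 CPM in Krt8+/+ AECs and at 2539.8, 3213, and 3353 CPM in Krt8–/– AECs. Tpm2, a tropomyosin, was counted at 797, 1332, and 1030.5 CPM in Krt8+/+ AECs and at 1123, 1604, and 1046 CPM in Krt8–/– AECs. These were higher in 3 of 3 isolations by blocked log2 differences of 0.31, 0.23, and 0.26 (edgeR unadjusted p = 0.038, 0.013, and 0.033). Without isolation 1, the value of Tpm2 was 0.15. The cytoplasmic actins were nearly equal. Actg1 was counted at 6555, 7079, and 6249 CPM in Krt8+/+ AECs and at 6686, 7112, and 6285 CPM in Krt8–/– AECs. The log2 difference of Actb was 0.0060 without the block and −0.0046 with DESeq2's size factors.

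Fibroblast and smooth muscle markers were higher in sum, but not in the median of isolation 2. All 17 were tested, and they summed to 2988, 4811, and 5527 CPM in Krt8+/+ AECs and to 3870.0, 5162, and 7206 CPM in Krt8–/– AECs, higher in Krt8–/– AECs in each isolation. Acta2, the actin of smooth muscle and myofibroblasts, made up 37.0% of the sum, at 987, 2124, and 1923 CPM in Krt8+/+ AECs and 1459.9, 2253, and 2190.3 CPM in Krt8–/– AECs. Of the 17 markers, 4 were higher and 0 lower in all 3 isolations, and the median log2 was 0.33, −0.38, and 0.25, below 0 in isolation 2. With the block, Pdgfrb and Myh11 were higher and Dcn lower at an unadjusted p under 0.05. Their part in the actomyosin values was not tested.

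Neighbouring lists had weaker or mixed counts, beside 12.4% of all genes higher and 11.7% lower in all 3 isolations. Integrin and laminin genes had 6 of 24 higher and 1 lower in all 3 isolations, with a median log2 of 0.19, 0.31, and −0.012 in the 3 isolations. Lamc1, the γ1 chain found in most laminins, was counted at 61.7, 72.6, and 108 CPM in Krt8+/+ AECs and at 78.8, 101, and 123 CPM in Krt8–/– AECs, higher in 3 of 3 isolations (blocked log2 0.34, edgeR unadjusted p = 0.012). TGF-β pathway genes and targets had 7 of 25 higher and 1 lower in all 3 isolations, with a median of 0.066, 0.070, and 0.069. With DESeq2's size factors this median was 0.046, 0.078, and 0.040, so its evenness depended on the scaling. The 1 member with an unadjusted p under 0.05 with the block, Tgfbi, was lower (−0.71, edgeR unadjusted p = 0.019, and −0.084 without isolation 1). AP-1 and immediate early genes had 6 of 19 higher and 2 lower, with a median of 0.13, 0.10, and 0.15. Ccn2, a shared target of TGF-β and YAP signalling and the most abundant member of both lists, was counted at 3063, 3445, and 3146 CPM in Krt8+/+ AECs and at 3289.9, 4230.2, and 3300.5 CPM in Krt8–/– AECs. YAP/TAZ genes had 4 of 18 higher and 2 lower, and their median of 0.062, 0.15, and −0.081 was below 0 in isolation 3.

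Desmosome and junction genes, which connect to keratin filaments or lie beside them, were split by isolation. Desmosome and keratin linker genes had 2 of 18 higher and 0 lower in all 3 isolations, with medians of 0.25, 0.19, and −0.039. Tight and adherens junction genes had 1 of 20 higher and 1 lower, with medians of 0.14, 0.24, and −0.11. Basaloid markers had 2 of 13 higher and 1 lower, with medians of 0.11, 0.10, and −0.094. In each of these lists isolations 1 and 2 were above 0 and isolation 3 was below it. Other intermediate filament genes, such as Lmna and Vim, had 1 of 7 higher and 2 lower, with medians of −0.14, −0.052, and 0.15.

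Many NRF2 and antioxidant genes were lower in Krt8–/– AECs, though not the sum of the list in isolation 3. Of 22 tested, 10 were lower and 0 higher in all 3 isolations (11.7% and 12.4% of all genes tested). In 4 of the 22 all Krt8–/– libraries were below all Krt8+/+ libraries (2.53% of all genes tested). Their median log2 difference was −0.13, −0.25, and −0.10 in the 3 isolations, and 7 of the 22 were higher in isolation 3. They summed to 5046, 4787, and 5318 CPM in Krt8+/+ AECs and to 4795, 3997, and 5369 CPM in Krt8–/– AECs. With the block, 6 of the 22 had an unadjusted p under 0.05, all lower (2.13% of all genes tested were lower at that p). None was past the threshold. Gsta4, a glutathione transferase that clears lipid aldehydes, was counted at 31.9, 39.0, and 54.4 CPM in Krt8+/+ AECs and at 28.8, 27.7, and 30.7 CPM in Krt8–/– AECs. Gstm1, a glutathione transferase of the mu class, was counted at 96.6, 42.7, and 34.7 CPM in Krt8+/+ AECs and at 64.7, 23.4, and 33.9 CPM in Krt8–/– AECs. The genotypes did not overlap for Gsta4, while Gstm1 had nearly the same level in both in isolation 3.

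The blocked log2 difference was −0.49 for Gsta4 (standard error 0.13, edgeR unadjusted p = 0.0014, adjusted p = 0.655) and −0.49 for Gstm1 (edgeR unadjusted p = 0.0026, adjusted p = 0.792), each lower in 3 of 3 isolations. Without isolation 3, Gsta4 was at −0.32. Gsta3, another transferase of the alpha class, was counted at 7.69, 7.96, and 11.1 CPM in Krt8+/+ AECs and at 5.20, 5.53, and 7.65 CPM in Krt8–/– AECs, lower by a similar amount in each isolation (−0.55, −0.51, and −0.53). Nfe2l2, which encodes NRF2 itself, was counted at 193, 180.5, and 171 CPM in Krt8+/+ AECs and at 159, 178, and 150.1 CPM in Krt8–/– AECs (blocked log2 −0.16, and −0.10 without isolation 1). Gsta1 and Gsr were lower with the block too (−0.43 and −0.22), though Gsr was higher by 0.02 in isolation 2, without which its value was −0.35. Txnrd1, a thioredoxin reductase and the second most abundant member, was counted at 609.6, 700.4, and 859 CPM in Krt8+/+ AECs and at 659.7, 622, and 906 CPM in Krt8–/– AECs, higher in isolations 1 and 3. Prdx1, a peroxidase and the most abundant member, was counted at 2049.5, 1860.3, and 1888 CPM in Krt8+/+ AECs and at 1958, 1545, and 1731 CPM in Krt8–/– AECs.

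Cell cycle and respiratory chain genes also leaned lower, by small amounts. Over all genes tested, 11.7% were lower and 12.4% higher in all 3 isolations. Of 47 cell cycle and DNA replication genes, 16 were lower and 0 higher in all 3 isolations, and the median log2 was −0.24, −0.21, and −0.027, close to 0 in isolation 3. Birc5 (survivin), which acts in mitosis, was the 1 member with an unadjusted p under 0.05 with the block, at 56.0, 26.0, and 44.9 CPM in Krt8+/+ AECs and 37.6, 18, and 45.4 CPM in Krt8–/– AECs. Rrm2, the small subunit of ribonucleotide reductase, was counted at 102, 65.2, and 137 CPM in Krt8+/+ AECs and at 95.4, 45.7, and 135 CPM in Krt8–/– AECs, so that isolation 2 held most of its difference. Of 75 respiratory chain and ATP synthase genes, 20 were lower and 1 higher in all 3 isolations, with a median log2 of −0.042, −0.044, and −0.036. Atp5b, their most abundant member, was counted at 1551, 1528, and 1500.1 CPM in Krt8+/+ AECs and at 1536, 1469, and 1512 CPM in Krt8–/– AECs, which is nearly equal. Of 77 cytosolic ribosomal protein genes, 14 were lower and 0 higher in all 3 isolations. With DESeq2's size factors 30 of them were lower, so the count depended on the scaling. The share of all genes lower was 13.4% with those factors. The ribosomal median of −0.042, −0.17, and 0.043 was above 0 in isolation 3. None of the 152 genes of the last 2 lists had an unadjusted p under 0.05 with the block.

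Interferon-stimulated genes were low in both genotypes and leaned lower in Krt8–/– AECs. Of 36 tested, 3 were higher and 8 lower in all 3 isolations (12.4% and 11.7% of all genes), with a median log2 of −0.046, −0.024, and −0.14. Igtp, an interferon-inducible GTPase, was counted at 1.84, 2.90, and 2.39 CPM in Krt8+/+ AECs and at 1.37, 1.01, and 1.40 CPM in Krt8–/– AECs. Trim25, a ubiquitin ligase that activates RIG-I, was counted at 30.2, 32.2, and 25.3 CPM in Krt8+/+ AECs and at 26.1, 23.4, and 21.3 CPM in Krt8–/– AECs. Both were lower in 3 of 3 isolations (blocked log2 −0.88 and −0.31, edgeR unadjusted p = 0.0074 and 0.04). Ifit1, an interferon-induced RNA-binding protein, went the other way from a trace level, at 0.136, 0.166, and 0.265 CPM in Krt8+/+ AECs and 2.23, 0.467, and 0.638 CPM in Krt8–/– AECs. Ddx58 (RIG-I), the most abundant member, was counted at 45.2, 47.4, and 44.6 CPM in Krt8+/+ AECs and at 51.6, 57.1, and 42.2 CPM in Krt8–/– AECs.

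Secreted factors were mixed. Il6, an inflammatory cytokine of senescent cells, was counted at 7.83, 3.48, and 7.42 CPM in Krt8+/+ AECs and at 2.80, 2.10, and 5.55 CPM in Krt8–/– AECs. Il18, an inflammasome cytokine that macrophages also make, was counted at 11.9, 2.99, and 0.729 CPM in Krt8+/+ AECs and at 4.75, 1.32, and 0.383 CPM in Krt8–/– AECs, in the order of isolations seen for the macrophage markers. Ccl7, a monocyte chemokine, was counted at 6.13, 4.98, and 12.5 CPM in Krt8+/+ AECs and at 3.6, 0.857, and 8.61 CPM in Krt8–/– AECs. All 3 were lower in 3 of 3 isolations (blocked log2 −0.87, −1.20, and −1.04, edgeR unadjusted p = 0.013, 0.0031, and 0.025), at levels under 13 CPM. Il6 was at −0.56 without isolation 1 and Ccl7 at −0.65 without isolation 2. Of 17 chemokines tested, 0 were higher and 1 lower in all 3 isolations, and the median log2 was −0.98 in isolation 1 and 0 in isolations 2 and 3. Of 25 cytokines and growth factors, 2 were higher and 2 lower (1 and 4 with DESeq2's size factors), with medians of −0.084, 0.065, and 0.026.

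The urokinase receptor Plaur was counted at 439.6, 340.1, and 326 CPM in Krt8+/+ AECs and at 511, 514, and 423 CPM in Krt8–/– AECs, higher in 3 of 3 isolations (blocked log2 0.40, edgeR unadjusted p = 0.009). The serpin Serpine2 was counted at 92.9, 51.1, and 78.5 CPM in Krt8+/+ AECs and at 49.0, 45.9, and 54.8 CPM in Krt8–/– AECs. Serpinb2, another serpin, was counted at 255, 125, and 125 CPM in Krt8+/+ AECs and at 89.2, 91.2, and 117 CPM in Krt8–/– AECs. For Serpine2 and Serpinb2 the Krt8–/– library was the lower one of each pair, with blocked log2 differences of −0.54 and −0.69 (edgeR unadjusted p = 0.0028 and 0.02). Without isolation 1 these were −0.34 and −0.27. Of all 19 proteases and inhibitors, 6 were higher and 2 lower in all 3 isolations, but the median of −0.21, 0.019, and 0.15 changed sign between isolations.

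Matrix genes were mixed. Of 24 collagen and matrix genes, 4 were higher and 1 lower in all 3 isolations, and none was higher at an unadjusted p under 0.05 with the block. Their median log2 of 0.088, −0.11, and 0.31 had the signs of the fibroblast and smooth muscle markers in each isolation, and the part of those cells was not tested. Fn1 (fibronectin), their most abundant member, was counted at 4069, 7101, and 4512 CPM in Krt8+/+ AECs and at 6203, 9359, and 5001 CPM in Krt8–/– AECs, higher in 3 of 3 isolations (blocked log2 0.39, edgeR unadjusted p = 0.177). Spp1 (osteopontin), a matrix glycoprotein of macrophages and injured epithelium, was the member that was lower in all 3 isolations. It was counted at 743, 414, and 754 CPM in Krt8+/+ AECs and at 609, 276, and 229.9 CPM in Krt8–/– AECs (blocked log2 −0.86, edgeR unadjusted p = 0.0013), with the largest gap in isolation 3, where macrophage markers were lowest. Without isolation 3, the blocked value of Spp1 was −0.43.

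The 12 lists of metabolism, stress, and immune genes not described so far gave no shift of 1 sign in all 3 isolations. Their median log2 in isolations 1, 2, and 3 was −0.039, 0.22, and −0.045 for sterol synthesis, −0.0079, 0.078, and −0.080 for fatty acid and phospholipid synthesis, and 0.016, 0.020, and −0.096 for fatty acid oxidation. Glycolysis and hypoxia genes had medians of −0.079, −0.035, and 0.073, and the stress response of the endoplasmic reticulum had 0.0091, 0.15, and −0.072. Heat shock chaperones had medians of 0.063, −0.038, and −0.045, p53 targets −0.088, 0.021, and −0.12, and NF-κB subunits and feedback genes −0.063, 0.16, and −0.084. For antigen presentation they were −0.16, 0.13, and −0.16 (class I) and 0, 0, and −0.28 (class II). Wnt and Notch genes had medians of −0.017, 0.065, and −0.12. Lysosome genes had 5 of 26 lower and 0 higher in all 3 isolations with medians of −0.18, −0.048, and 0.055. The part of macrophage RNA in these values was not tested.

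Markers of the remaining cell types were scarce or did not separate the genotypes. Lymphocyte markers summed to at most 0.408 CPM and neutrophil markers to at most 1.36 CPM in a library. Endothelial markers summed to 43.5, 56.1, and 74.4 CPM in Krt8+/+ AECs and to 32.5, 88.1, and 55.8 CPM in Krt8–/– AECs, with 93.1% from Esam, a junction protein that epithelium can share. Club and ciliated markers summed to at most 39.3 CPM and basal cell markers to at most 10.5 CPM. Mesothelial markers summed to 1571, 1888, and 1007 CPM in Krt8+/+ AECs and to 1695, 2468, and 903 CPM in Krt8–/– AECs, but 98.5% of this was Msln.

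**Figure D2:**
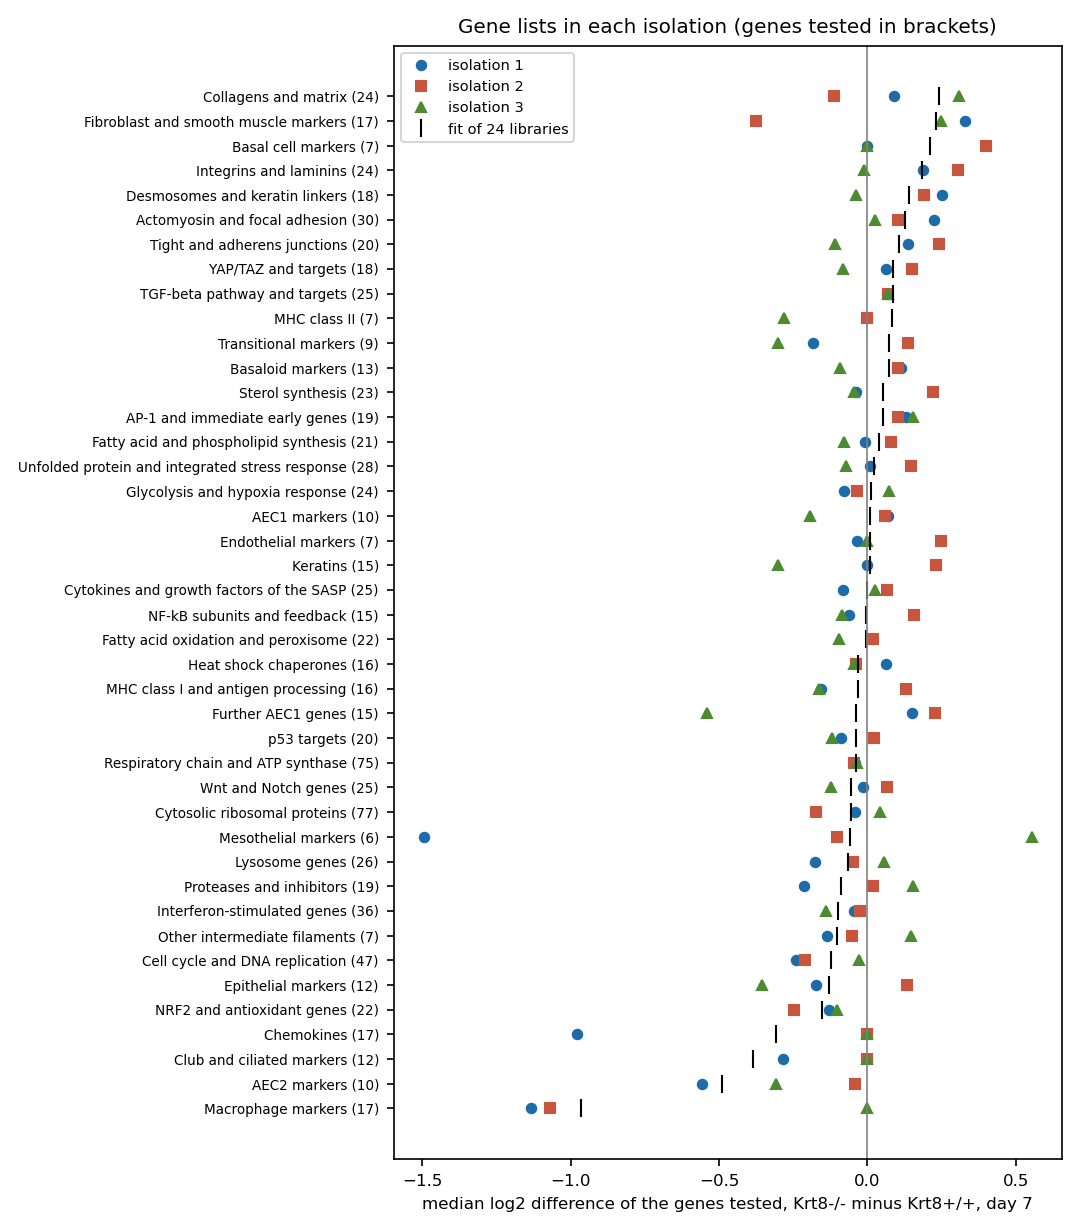
Median log2 difference (Krt8–/– minus Krt8+/+, horizontal axis) of the tested genes of 42 lists on day 7 in isolation 1 (circles), 2 (squares), and 3 (triangles), with a tick for the model of 24 libraries. NRF2 genes were below 0 in each isolation and actomyosin genes above 0 (in isolation 3 at 0.025, and at −0.0049 with DESeq2's size factors), while macrophage markers were at −1.13, −1.07, and 0.

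Genes near Krt8 were counted separately, without a test of the region. Within 5 Mb of Krt8, 141 other genes were tested, and 20 of them (14.2%) had an unadjusted p under 0.05 with the block, 14 lower and 6 higher. On the rest of chromosome 15 it was 28 of 574 genes (4.88%), and on the other chromosomes 613 of 17330 (3.54%). Of the 20, Smarcd1 alone was past the threshold in edgeR with or without the block. DESeq2 with the block also called Calcoco1, Krt18, Mettl7a1, and Pou6f1. Whether the genes near Krt8 differ through linked sequence from the strain in which the knockout was made was not tested.

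Pou6f1, a POU-domain transcription factor, was counted at 4.90, 5.72, and 6.03 CPM in Krt8+/+ AECs and at 2.69, 2.18, and 1.98 CPM in Krt8–/– AECs. Calcoco1, an adaptor of selective autophagy, was counted at 67.8, 81.8, and 64.2 CPM in Krt8+/+ AECs and at 39.2, 56.9, and 35.5 CPM in Krt8–/– AECs. Prr13, a short proline-rich protein, was counted at 174, 181, and 136 CPM in Krt8+/+ AECs and at 242, 208, and 219 CPM in Krt8–/– AECs. In all 3 the genotypes did not overlap, and the blocked log2 difference was −1.28 (edgeR adjusted p = 0.166), −0.72 (edgeR adjusted p = 0.258), and 0.46 (edgeR adjusted p = 0.655), with 1 direction in 3 of 3 isolations. Each had the same direction on days 0, 1, and 3, with −0.85, −0.74, and −1.69 for Pou6f1, −0.98, −0.41, and −0.30 for Calcoco1, and 0.48, 0.59, and 0.54 for Prr13.

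Other neighbours did not have the same direction on day 0. Mettl7a1, a methyltransferase of lipid droplets, was counted at 7.28, 5.81, and 11.5 CPM in Krt8+/+ AECs and at 3.72, 3.5, and 4.66 CPM in Krt8–/– AECs. Smagp, a small membrane glycoprotein of epithelia, was counted at 10.5, 9.37, and 4.57 CPM in Krt8+/+ AECs and at 5.38, 5.68, and 3.32 CPM in Krt8–/– AECs. Both were lower in 3 of 3 isolations on day 7, by blocked log2 differences of −1.03 (edgeR adjusted p = 0.166) and −0.73 (edgeR adjusted p = 0.452). On day 0 the differences were 0.18 for Mettl7a1 and 0.087 for Smagp, both above 0.

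**Figure D3:**
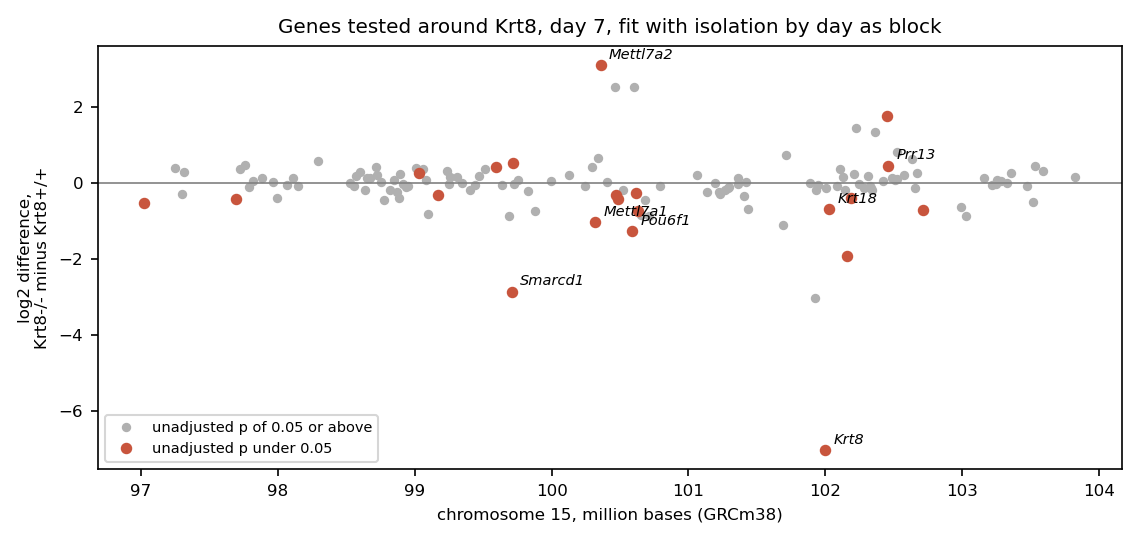
Log2 difference between genotypes on day 7 with isolation by day as a block (vertical axis) against position on chromosome 15 in Mb of GRCm38 (horizontal axis), 1 point for each gene tested within 5 Mb of Krt8. Red points mark the genes with an unadjusted p under 0.05, with Krt8 at −7.03 and Smarcd1 at −2.87 at the bottom.

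With all isolations in the model, no gene rose in edgeR, with or without the block, and the highest-ranked genes in the upward direction missed the threshold. Nppb, a natriuretic peptide known from stretched heart muscle, was counted at 14.0, 22.8, and 14.6 CPM in Krt8+/+ AECs and at 32.5, 41.9, and 21.9 CPM in Krt8–/– AECs. Epas1 (HIF-2α), a hypoxia-regulated transcription factor, was counted at 2.52, 6.97, and 5.77 CPM in Krt8+/+ AECs and at 6.46, 12.4, and 6.63 CPM in Krt8–/– AECs. Il1rl1 (ST2), the receptor of IL-33, was counted at 62.3, 36.2, and 70.2 CPM in Krt8+/+ AECs and at 81.2, 84.6, and 86.0 CPM in Krt8–/– AECs. All 3 were higher in 3 of 3 isolations, with blocked log2 differences of 0.89 (edgeR adjusted p = 0.520), 0.75 (edgeR adjusted p = 0.436), and 0.62 (edgeR adjusted p = 0.929). Without isolation 2, Il1rl1 was at 0.33. DESeq2 with the block called Epas1 (0.74, DESeq2 adjusted p = 0.019).

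Utp20, a factor of ribosomal RNA processing, was counted at 40.8, 40.5, and 53.9 CPM in Krt8+/+ AECs and at 58.7, 57.5, and 76.0 CPM in Krt8–/– AECs. Casd1, which acetylates sialic acid, was counted at 17.1, 19.2, and 23.1 CPM in Krt8+/+ AECs and at 25.0, 30.5, and 25.9 CPM in Krt8–/– AECs. Dgke, a diacylglycerol kinase, was counted at 4.56, 8.87, and 5.70 CPM in Krt8+/+ AECs and at 12, 14.2, and 9.25 CPM in Krt8–/– AECs. In these genes the genotypes did not overlap. The blocked log2 differences were 0.51, 0.46, and 0.92 (edgeR adjusted p = 0.655, 0.595, and 0.929), each higher in 3 of 3 isolations, and for Utp20 the size was nearly the same in each isolation (0.52, 0.51, and 0.49).

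Eno1b and Gm4735, near-identical copies of the enolase gene Eno1, were higher in Krt8–/– AECs in 3 of 3 isolations, by far less in isolation 3. Eno1b was counted at 86.8, 81.4, and 88.6 CPM in Krt8+/+ AECs and at 286, 298, and 107 CPM in Krt8–/– AECs. Gm4735, a processed pseudogene, was counted at 90.3, 90.6, and 97.6 CPM in Krt8+/+ AECs and at 391, 433, and 127 CPM in Krt8–/– AECs. The levels of both are uncertain, since reads of Eno1 can be split among the copies. Eno1 itself was counted at 2735, 2627, and 2909.6 CPM in Krt8+/+ AECs and at 2283, 2061, and 3032 CPM in Krt8–/– AECs, lower in isolations 1 and 2, where the copies were higher, by a similar number of CPM. More RNA of the copies and a different split of reads cannot be told apart. Their unblocked log2 differences were 1.43 and 1.77 (edgeR adjusted p = 1 for both). Without isolation 3, both were past the threshold, at 1.80 (edgeR adjusted p = 0.0047) and 2.19 (edgeR adjusted p = 0.0026), which made 5 genes called, 2 higher and 3 lower.

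Fresh AEC2s of the same isolations give a base for the values of day 7. The difference between genotypes itself changed from day 0 to day 7 in 1 gene without the block, Krt8, whose log2 difference went from −4.15 to −7.06 from a wild-type level of 485, 552, and 533 CPM on day 0. Krt8–/– AECs were at 36.4, 31.1, and 21.2 CPM on day 0, close to their level on day 7, so the change lay in the wild-type level. The change of −2.91 had an edgeR adjusted p = 1.3e-04. Without isolation 1, edgeR called 0 genes for this change, with 303 at an unadjusted p under 0.05, against 369 with all isolations. Other tools called 4 genes (DESeq2) and 1 gene (limma-voom). With the block, 5 genes were called, all of them with a change toward lower values in Krt8–/– AECs, namely Krt8, Krt18, Cd34, Cd36, and Chtf18. Of these, Krt8 alone was still called when any 1 isolation was left out of the blocked model.

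Krt18 was higher in Krt8–/– AECs on day 0 and lower on day 7, a change of −1.33 (edgeR adjusted p = 0.041). Cd36 was at 2357, 2602, and 2717 CPM in Krt8+/+ AECs and at 2244, 2432, and 2230 CPM in Krt8–/– AECs on day 0, already lower in all 3 isolations but by less than on day 7 (−1.06, edgeR adjusted p = 0.042). Cd34 was at 38.1, 24.2, and 17.8 CPM in Krt8+/+ AECs and at 37.1, 28.2, and 17.3 CPM in Krt8–/– AECs on day 0, without a difference of 1 direction (−2.57, edgeR adjusted p = 0.042). Chtf18, a loader of the replication clamp PCNA, differed on day 0 instead. On that day it was counted at 0.127, 0.217, and 0.332 CPM in Krt8+/+ AECs and at 1.66, 2.02, and 1.39 CPM in Krt8–/– AECs, and on day 7 at 15.2, 8.38, and 13.7 CPM and at 10.7, 7.09, and 14.9 CPM.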

How the data were processed

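RNA of AECs was sequenced in bulk. The deposited table holds counts per gene for 24 libraries, whole numbers not scaled between libraries. The submitters' processing notes name cutadapt 2.3, STAR 2.7.8a, RSEM 1.3.3, and the genome build GRCm38, without role or order. RSEM gives estimates, so the whole numbers may be rounded ones, and 5 entries for reporter sequences had 0 counts.

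From the counts, log2 CPM (prior count 2) and tests were computed in R 4.3.3. edgeR 4.0.16 filtered genes (filterByExpr, minimum count 10, minimum total 15), computed TMM factors, and fitted a quasi-likelihood model with 8 groups of genotype and day (16 residual degrees of freedom). A further fit used 12 blocks of isolation by day (8 residual degrees of freedom). All tests were two-sided. DESeq2 1.42.0 (Wald test, default settings) and limma 3.58.1 (voom) were alternatives, and the scripts were tested on simulated counts.

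The pairing comes from the date that the labels share, and reading it as the date of isolation is an inference. Deviations from the group means on day 7 correlated at 0.380, 0.287, and 0.548 within isolations and at −0.383 to 0.0852 between them.

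Members and lists were chosen with earlier results of these data known. Lists held 932 entries, of which 910 were tested. Genes were named if past the threshold in either fit, if among the 10 smallest blocked p values in a direction with that direction in all isolations and at least 5 CPM, if within 5 Mb of Krt8 at an unadjusted p under 0.05, or if they were list members at an unadjusted p under 0.05 or among the 2 most abundant of a list. These rules gave 178 genes, and the text gives a selection of them made with their values known.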

Additional observations from a re-analysis of the deposited data

Results flagged for a closer look

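These values were taken up for a closer look because the difference between genotypes itself differed between days in a test, day 7 against day 0. The difference of Krt8 was lower on day 7 by a log2 of −2.91 without the block and −2.86 with isolation by day as a block. With the block, the change was −1.33 for Krt18, −2.57 for Cd34, −3.15 for Chtf18, and −1.06 for Cd36. These 4 were no longer called when any 1 isolation was left out of the blocked model. For Chtf18 the levels of the genotypes were apart on day 0 and overlapped on day 7. For Cd36 the Krt8–/– library was lower in each isolation on both days, by more on day 7. For Cd34 the genotypes had no common direction on day 0 and were apart within each isolation on day 7. What caused these changes was not tested.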

How the results depend on the processing

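Krt8 was past the threshold under every alternative, with log2 differences of −6.96 to −7.15. The count of genes called on day 7 (3) became 7 with DESeq2, 23 with DESeq2 and the replicate block, 5 with the replicate block in edgeR, and 7 with the block in the 6 libraries of day 7. It ranged from 2 to 5 with an isolation left out. With the block and isolation 2 or 3 left out, alternatives chosen after seeing the data, it was 8 or 10. The count for the change from day 0 to day 7 (1) became 4 with DESeq2, 31 with DESeq2 and the block, 3 without a filter on low counts, 5 with the block in edgeR, and 2 with the block and isolation 2 left out, and it ranged from 0 to 1 with an isolation left out. The count of lists whose medians had 1 sign in each isolation (8) was 7 with DESeq2's size factors and 12 to 24 with an isolation left out, where fewer signs must match. Krt7 (0.084) was −0.0087 or −0.10 with the block and isolation 1 or 2 left out, and ranged from −0.061 to 0.21 with an isolation left out. Actb (0.0060) was −0.0046 with DESeq2's size factors and in DESeq2, −0.010 in DESeq2 with the block, −0.0026 without a filter, −0.0012 with the block in 6 libraries, and −0.017 with the block and isolation 2 left out, and ranged from −0.015 to 0.017 with an isolation left out. Lyz2 (−0.97) was −0.26 with the block, −0.19 in DESeq2 with the block, −0.089 in limma-voom, and 0.22 or 0.21 with the block and isolation 1 or 2 left out. Kdr (0.38) was −0.21 with the block and isolation 3 left out, and ranged from −0.20 to 0.66 with an isolation left out. Txnrd1 (0.013) was −0.0027 with DESeq2's size factors and in DESeq2, −0.0066 in DESeq2 with the block, and −0.046 or −0.028 with the block and isolation 1 or 3 left out, and ranged from −0.031 to 0.083 with an isolation left out. The cause was not tested. In the model of 24 libraries, the block of isolation by day in edgeR changed no call of a named gene on day 7 other than those of Cd36 and Cd34. Of 320 list medians under alternatives, 291 moved by less than 1 SD of the isolations. Some medians still changed sign. That of keratins (0.0069) was −0.033 with the block and below 0 with any 1 isolation left out. The median of glycolysis and hypoxia genes (0.012) was −0.0075 with the block. Depth limits genes near 1 CPM, which had about 12 to 17 counts per library.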

Other observations

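Genes that differed by more than a log2 of 1 in the same direction on all 4 days, at 5 CPM or more on day 7, were few. Besides Krt8, Krt8-ps, and Smarcd1, which were lower, they were Rabl2, Eno1b, and Gm4735, which were higher. Rabl2, a small GTPase of cilia, lies on chromosome 15 at chr15:89582533-89591923, outside the 5 Mb around Krt8. It was counted at 6.74, 2.90, and 2.65 CPM in Krt8+/+ AECs and at 11, 10.4, and 8.23 CPM in Krt8–/– AECs on day 7, with log2 differences of 1.01, 1.25, and 1.53 on days 0, 1, and 3. For Eno1b these were 1.5, 1.48, and 1.49. Reads of Eno1b and Gm4735 can be split with Eno1, so their values are uncertain.

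Col1a1, chosen after its values were seen, was highest in isolation 3 in both genotypes. It was counted at 375, 431, and 760.1 CPM in Krt8+/+ AECs and at 443, 398, and 1260.1 CPM in Krt8–/– AECs. The same isolation had the lowest epithelial sum, and whether the mixture of cells differed between isolations was not tested. Limits of the comparison are its 3 isolations, a sex-linked difference between the genotypes in isolation 1, bulk RNA without counts of cells, and a global knockout with an unknown strain around the gene. Protein was not measured in these files, and missing the threshold does not show that a difference is absent.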
